A study of Arabidopsis thaliana with 7 samples.

Results

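The 3 numbered experiments of this Arabidopsis thaliana series were compared with each other, to describe how far the state of the seedlings differed from one experiment to the next. The arrays were grouped by the experiment number in their titles. Experiments 1, 2 and 3 had 2 arrays each, 1 of Col and 1 of soc1-101D, so 6 of the 7 arrays of the series entered the comparison, and the array of soc1-2 from experiment 3 was set beside it without entering the fit. Col is the Columbia wild type. soc1-101D is an early-flowering mutant in the Col background in which the flowering activator SOC1, itself a MADS-domain protein, carries a gain of function. soc1-2 is a late-flowering knock-out of the same gene, likewise described against Col. Per the labels, seedlings of all groups were grown for 7 days after germination in days of 16 h light and 8 h dark at 21 °C, and total RNA was labelled with biotin. The labels give no number of seedlings per sample, no planting and no hour of harvest, so planting, harvest, RNA handling and hybridisation cannot be told apart as parts of the experiment number.

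A young seedling that has used up its seed reserves lives on photosynthesis in its cotyledons and first leaves. Many of its transcripts follow the light, the temperature, the supply of sugar and the circadian clock, a set of genes that repress one another over the day. Chloroplasts carry their own small genome, which encodes part of the photosystems, of the NDH complex, of the ATP synthase and of the plastid ribosome, while most photosynthetic proteins are encoded in the nucleus. Anthocyanins are flavonoid pigments that seedlings make under strong light, cold or abundant sugar, and the COR genes encode small protective proteins that accumulate in cold and drought.

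Each value is a deposited 1-colour intensity per probe set, which was scaled here to a common array median of 194.7, and values are given for Col first and soc1-101D second within each experiment. Before the log2 step 0.1 times that median, 19.5, was added to each value as a pseudocount, so fold changes understate the change of dim genes. The 13648 probe sets with the higher mean signal, out of 22746, were tested with limma with genotype as a block. The term ± is the limma standard error of a log2 difference, and a probe set was called at a Benjamini-Hochberg adjusted p under 0.05. Only 6 arrays with 2 residual degrees of freedom stand behind each test, which limits the precision.

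The arrays fell into 3 pairs by experiment. The 2 arrays of an experiment correlated at r = 0.958, 0.954 and 0.978 in experiments 1, 2 and 3 across tested probe sets. Between experiments the correlation was 0.823 to 0.859 for experiments 1 and 2, 0.826 to 0.84 for experiments 1 and 3, and 0.889 to 0.928 for experiments 2 and 3. Over the tested probe sets, 82% of the variation lay between experiments (2 degrees of freedom), 9.38% between genotypes (1 degree of freedom) and 8.62% in the remainder. The sum of squares was larger for experiment than for genotype at 12421 probe sets (91%), although the experiment term has the larger number of degrees of freedom. In the same fit the genotype term was called at 85 probe sets (0.623%).

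**Figure D1:**
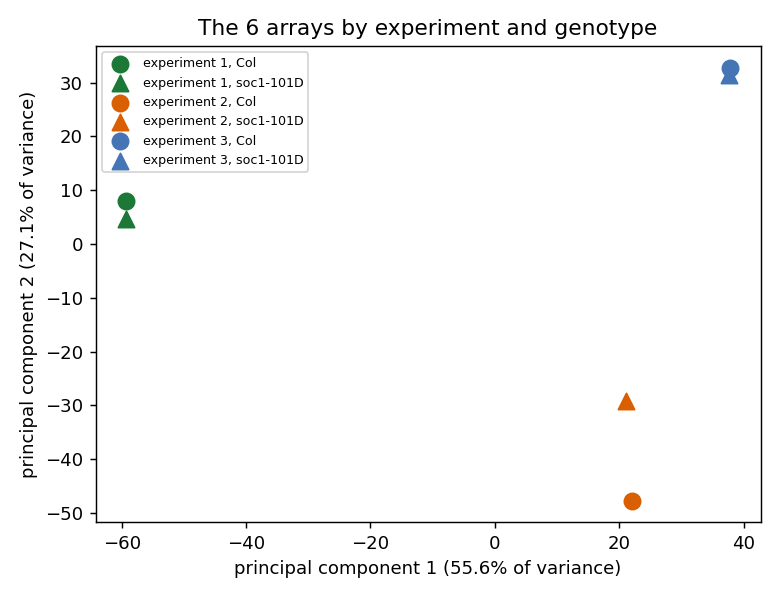
Scores of the 6 arrays on the first principal components of the log2 values of the tested probe sets (axes in component units, with 55.6% and 27.1% of the variance). Colours mark experiments 1, 2 and 3, and circles and triangles mark Col and soc1-101D. Both arrays of experiment 1 sit near −59 on component 1, while those of experiments 2 and 3 lie at 21.1 to 37.8.

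In the plot of array scores, experiment 1 stood apart on the first component and experiments 2 and 3 separated on the second. The 2 arrays of experiment 2 lay further from each other on the second component (−47.7 for Col and −29.3 for soc1-101D) than the arrays of the other experiments. Deposited medians were 193.7 and 206.8 in experiment 1, 204.7 and 205.4 in experiment 2, and 180.7 and 178.75 in experiment 3. The number of probe sets under the pseudocount was 3325 and 3083 in experiment 1, 3491 and 3644 in experiment 2, and 4189 and 4002 in experiment 3, so experiment 3 had more dim probe sets at a given median.

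The labelled tissue was checked against marker genes. RCA, the activase of the carbon-fixing enzyme Rubisco, had a scaled intensity of 30500 and 30700 in experiment 1, 28410 and 28300 in experiment 2 and 23180 and 27890 in experiment 3, a high level on every array. The 3 named seed storage markers summed to 90.08 to 105 in experiment 1, 123 to 267 in experiment 2 and 47.9 to 50.5 in experiment 3, and 3 named regulators of flowering and floral meristems (AGL42, FD and AGL24) to 147 at most. None of these 6 probe sets passed the filter on dim values. The summed intensity of the 3 named root markers, nearly all of it from the root β-glucosidase gene PYK10, was 13850 to 16980 in experiment 1, 22760 to 23190 in experiment 2 and 21290 to 21830 in experiment 3. Its part in the differences below was not tested, and fewer cells of a type and less RNA per cell cannot be told apart in these bulk samples.

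The experiments differed at a large share of the transcriptome. Experiment 1 against experiment 2 gave 2220 probe sets higher (16.3% of those tested) and 2252 lower (16.5%). Experiment 1 against experiment 3 gave 2011 higher (14.7%) and 3515 lower (25.8%). Experiment 2 against experiment 3 gave 1088 higher (7.97%) and 2296 lower (16.8%). By the F test over the 3 experiments 7095 probe sets (52%) differed. Of the called probe sets, 1037 higher and 1001 lower were at least 2-fold apart between experiments 1 and 2, 949 and 1473 between experiments 1 and 3, and 503 and 744 between experiments 2 and 3. At least 16-fold differences numbered 26, 50 and 4 in these 3 comparisons.

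**Figure D2:**
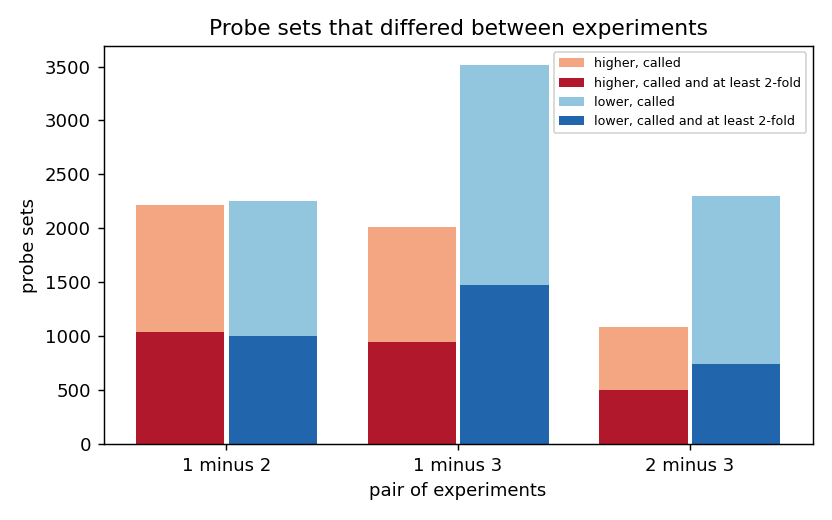
Number of probe sets (vertical axis) called in each pair of experiments (limma adjusted p under 0.05, 13648 tested). Pale bars are all calls in which the first-named experiment was higher (left) or lower (right), and the dark lower part of each bar holds those at least 2-fold apart. The pair of experiments 2 and 3 had the fewest calls, 3384, against 4472 and 5526.

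The balance of higher and lower calls depended on how the arrays were scaled. The median difference over all tested probe sets was 0.00 for experiment 1 minus 2, −0.15 for 1 minus 3 and −0.15 for 2 minus 3, so small negative differences from experiment 3 should be read against that shift. Higher calls made up 36.4% of the calls for 1 minus 3 and 32.2% for 2 minus 3. The deposited values already had nearly the same 2% trimmed mean, a mean without extreme values, on every array (495.5 to 496.2). With quantile normalization the shares of higher calls were 46.3% and 49.8%. With the deposited values left without median scaling, called unscaled here, they were 50.1% and 56.2%. With arrays centred on the tested probe sets they were 50.1% and 51.6%. Under these alternatives the median difference was −0.042 to −0.004 for 1 minus 3 and −0.026 to 0.03 for 2 minus 3. The large excess of lower calls in these pairs thus depended on the median scaling. Whether the seedlings had a part in it was not tested. No probe set called under both the median scaling and any alternative changed its sign. The shares of all tested probe sets set beside gene counts below are those with median scaling. For 1 minus 3 the other scalings called 2527 to 2583 probe sets lower, against 3515 with median scaling. For 2 minus 3 they called 1163 to 1341 lower, against 2296.

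The comparison of experiments 2 and 3 was the least secure. Without the filter on dim probe sets limma called 0 probe sets in it, with 5578 at an unadjusted p under 0.05, while it still called 1978 for 1 minus 2 and 2981 for 1 minus 3. Calls for 2 minus 3 also fell to 513 without the Col array of experiment 3, 1031 without its soc1-101D array and 1456 without the Col array of experiment 2. For 1 minus 2 the count fell to 2601 and 2876 without the Col or the soc1-101D array of experiment 1. For 1 minus 3 it fell to 3171 without the soc1-101D array of experiment 1 and to 2815 and 2894 without the Col or the soc1-101D array of experiment 3. The count of the F test, 7095, fell to 4505 without the Col array of experiment 3. Every adjusted p for 2 minus 3 below holds for the filtered set only.

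Col and soc1-101D gave the differences separately, since each genotype has its own array in each experiment. Across tested probe sets the difference in Col and the difference in soc1-101D correlated at r = 0.804 for 1 minus 2, 0.863 for 1 minus 3 and 0.742 for 2 minus 3, as a description over genes, which are not independent. All called probe sets had the same sign in both genotypes, as the call needs little deviation between them, and 76.9%, 81.8% and 77.4% of all tested ones did.

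**Figure D3:**
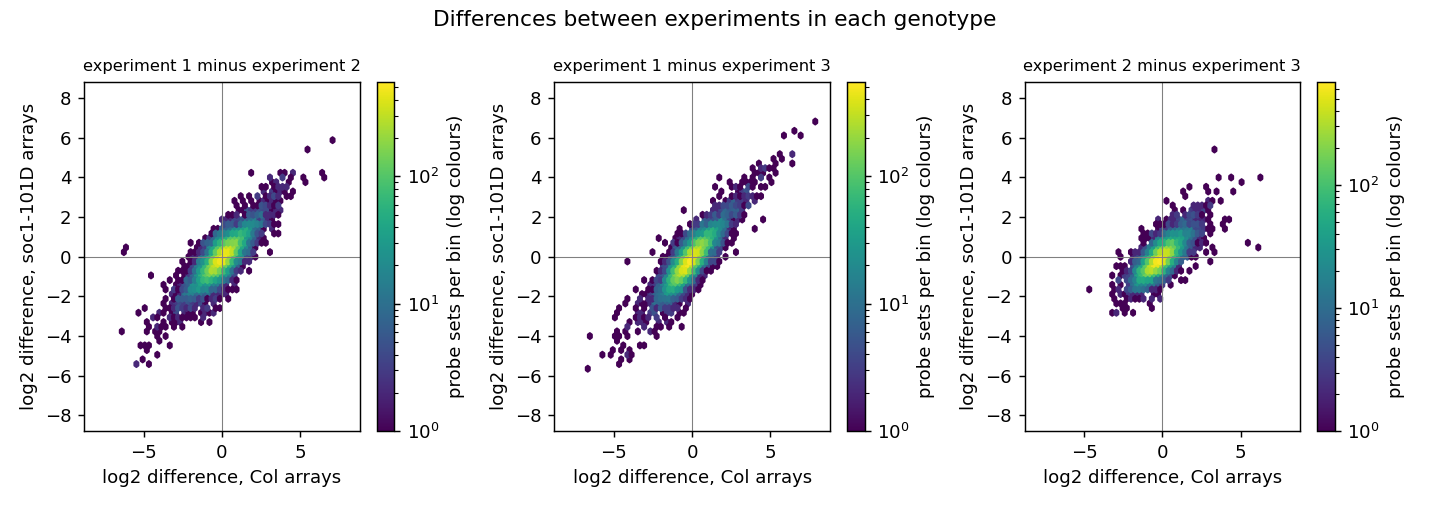
Log2 difference between 2 experiments in the Col arrays (horizontal) and in the soc1-101D arrays (vertical), with colour giving the number of tested probe sets per bin on a log scale. The clouds run along the diagonal in all 3 pairs (r = 0.804, 0.863 and 0.742), and the cloud of experiment 2 minus experiment 3 is the shortest.

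The soc1-2 array of experiment 3, which was not used in the fit, served as a further array of that experiment. Of the probe sets called higher in experiment 1 than in experiment 3, 97.3% were lower on the soc1-2 array than on both arrays of experiment 1, and of those called lower, 99% were higher there. The same held for 34.6% and 49.5% of all tested probe sets. For experiment 2 against 3 the shares were 92.7% and 98.4%, beside 29.6% and 49.5% of all tested.

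Genes at which both arrays of 1 experiment lay at least 2-fold beyond all 4 other arrays were counted next, as a description without a test. Experiment 1 stood apart upward at 313 probe sets (2.29%) and downward at 287 (2.1%). Experiment 2 did so at 53 (0.388%) and 67 (0.491%), and experiment 3 at 78 (0.572%) and 88 (0.645%). Of the probe sets at which experiment 3 stood apart, 77 of 78 upward and 88 of 88 downward had the soc1-2 array beyond all 4 arrays of experiments 1 and 2 as well, against 33% and 16.8% of all tested probe sets.

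**Figure D4:**
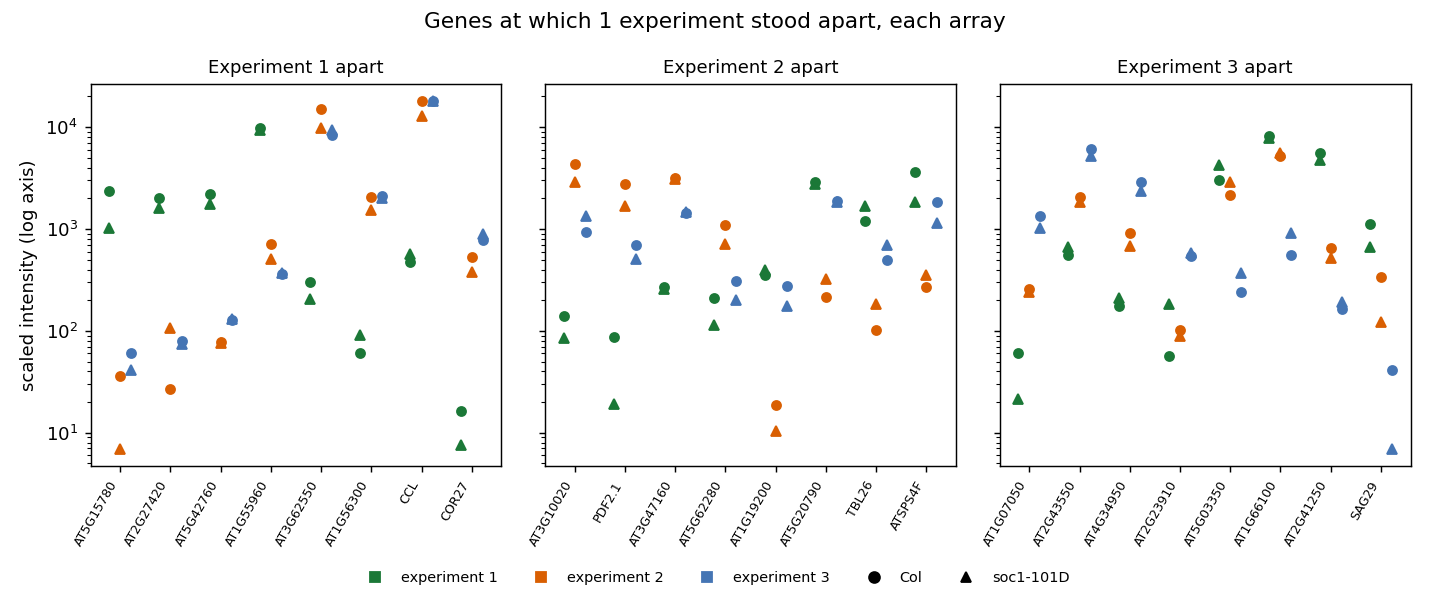
Scaled intensity (log axis) of named genes at which experiment 1, 2 or 3 stood apart by 2-fold or more, 1 point per array. Colours mark the experiments, placed 1, 2, 3 from left to right at each gene, and circles and triangles mark Col and soc1-101D. In the left panel the 2 points of experiment 1 lie above or below all 4 others at every gene, as the choice of genes requires.

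The genes highest in experiment 1 were strongly expressed there and far lower in both other experiments. AT5G15780 had 2349 and 1013 in experiment 1, 36.3 and 6.92 in experiment 2 and 60.3 and 40.8 in experiment 3. It was 40.8-fold higher in experiment 1 than in experiment 2 (log2 5.35 ± 0.23, adjusted p = 3.68e-05) and 22.5-fold higher than in experiment 3 (log2 4.495 ± 0.23, adjusted p = 2.71e-05). AT2G27420 had 2034 and 1615 in experiment 1, 27.1 and 107 in experiment 2 and 79.1 and 74.5 in experiment 3, and was 23.9-fold higher than in experiment 2 (log2 4.58 ± 0.39, adjusted p = 0.000287) and 19.04-fold higher than in experiment 3. Both genes were taken from those at which experiment 1 stood apart, so their lack of overlap with the other arrays follows from that choice. The 2 genotypes of experiment 1 gave levels of the same order. AT5G42760 had 2191 and 1760 in experiment 1, 77.1 and 75.2 in experiment 2 and 126 and 132 in experiment 3, which was 20.8-fold higher against experiment 2 (log2 4.38 ± 0.18, adjusted p = 3.68e-05). AT1G55960 had 9765 and 9440 in experiment 1, 709 and 505 in experiment 2 and 363 and 372.5 in experiment 3, which was 24.8-fold higher against experiment 3 (log2 4.63 ± 0.20, adjusted p = 1.94e-05). AT3G56290 ran in parallel with 9167 and 8861 in experiment 1, 887 and 629 in experiment 2 and 446 and 459.6 in experiment 3. For AT1G55960 and AT3G56290 the lowest level was in experiment 3, and for AT5G42760 it was in experiment 2.

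HYH, a bZIP transcription factor that acts beside HY5 in the light response of seedlings, was among the genes highest in experiment 1. Its scaled intensity was 836.5 and 727 in experiment 1, 80.2 and 99.7 in experiment 2 and 149 and 94.3 in experiment 3, 7.34-fold higher than in experiment 2 (log2 2.88 ± 0.23, adjusted p = 0.000216) and 5.78-fold higher than in experiment 3 (log2 2.53 ± 0.23, adjusted p = 0.000282). HYH is 1 of only 2 tested members of the list of light signalling genes, and the other, the homeobox gene HAT2, gave log2 differences of 0.36 and 0.17 with adjusted p = 0.223 and 0.55. AT1G64500 had 2464 and 1756 in experiment 1, 196 and 209 in experiment 2 and 99.8 and 83.5 in experiment 3 and was 18.95-fold higher in experiment 1 than in experiment 3 (log2 4.24 ± 0.20, adjusted p = 1.94e-05). AT2G41250 formed a stepped series, with 5516 and 4768 in experiment 1, 648 and 524 in experiment 2 and 163 and 191 in experiment 3. All 3 pairs of experiments differed for AT2G41250, with log2 differences of 3.096, 4.71 and 1.62 for 1 minus 2, 1 minus 3 and 2 minus 3 (adjusted p = 9.98e-05, 1.94e-05 and 0.00417).

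The genes lowest in experiment 1 showed the opposite layout, with high levels in both other experiments. AT3G62550 had 304 and 208 in experiment 1, 15050 and 9778 in experiment 2 and 8347 and 9353 in experiment 3. It was 44.8-fold lower in experiment 1 than in experiment 2 (log2 −5.49 ± 0.23, adjusted p = 3.68e-05) and 32.7-fold lower than in experiment 3 (log2 −5.03 ± 0.23, adjusted p = 1.94e-05). CCL, a transcript known to cycle with the circadian clock, had 476 and 565 in experiment 1, 17930 and 12950 in experiment 2 and 18030 and 18040 in experiment 3. CCL was 28.4-fold lower against experiment 2 (log2 −4.83 ± 0.21, adjusted p = 3.68e-05) and 33.6-fold lower against experiment 3, while experiments 2 and 3 did not differ beyond their spread (log2 −0.24, adjusted p = 0.43). COR27, a small protein induced by cold and light that acts on clock genes, had 16.2 and 7.62 in experiment 1, 531 and 376 in experiment 2 and 772 and 891 in experiment 3 and was 27.3-fold lower in experiment 1 than in experiment 3 (log2 −4.77 ± 0.22, adjusted p = 1.94e-05). AT1G56300 had 61.3 and 90.6 in experiment 1, 2041 and 1536 in experiment 2 and 2087 and 2008 in experiment 3 and was 18.99-fold lower against experiment 2 (log2 −4.25 ± 0.23, adjusted p = 5.56e-05). AT1G70820 had 10.3 and 137 in experiment 1, 2457 and 2243 in experiment 2 and 2676 and 2298 in experiment 3, and its difference of 34.8-fold lower rests on an uneven pair in experiment 1 (log2 −5.12 ± 0.56, adjusted p = 0.000746).

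GI encodes GIGANTEA, a clock component of the evening that also measures day length. GI and TIC were the only members of the list of 19 evening clock genes that the tables used here name on the array. GI had 403 and 462 in experiment 1, 3032 and 2372 in experiment 2 and 1043 and 848 in experiment 3. The 3 experiments did not overlap and all pairs differed. GI was 5.99-fold lower in experiment 1 than in experiment 2 (log2 −2.58 ± 0.20, adjusted p = 0.00021) and 2.13-fold lower than in experiment 3 (log2 −1.09 ± 0.20, adjusted p = 0.00516), and it was 2.81-fold higher in experiment 2 than in experiment 3 (log2 1.49 ± 0.20, adjusted p = 0.0053). TIC, another clock regulator, had 1936 and 1742 in experiment 1, 1660 and 1318 in experiment 2 and 1312 and 1254 in experiment 3 and did not pass in any pair (adjusted p = 0.219, 0.053 and 0.426). The 18 genes of the morning clock list are not analysed here.

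The cold-responsive COR genes were lower in experiment 1 than in experiment 2 at all 4 tested members of that list of 20, with a median log2 difference of −2.77, beside 16.5% called lower and a median of 0.00 for all tested probe sets. COR15B, a protective protein of the chloroplast stroma, had 135 and 137 in experiment 1, 3451 and 1216 in experiment 2 and 4667 and 1044 in experiment 3. COR15B was 13.3-fold lower in experiment 1 than in experiment 2 (log2 −3.74 ± 0.43, adjusted p = 0.000933) and 14.4-fold lower than in experiment 3 (log2 −3.85 ± 0.43, adjusted p = 0.000749). Its paralog COR15A had 159 and 79.8 in experiment 1, 5077 and 610.4 in experiment 2 and 3256 and 93.7 in experiment 3, so the soc1-101D array of experiment 3 lay within the range of experiment 1 while the Col array lay far above. The soc1-2 array of experiment 3 read 13690 for COR15A and 10060 for COR15B, above all 6 compared arrays. The dehydrin gene COR47 had 3279 and 1908 in experiment 1, 12640 and 6106 in experiment 2 and 5471 and 4666 in experiment 3 and was 3.49-fold lower in experiment 1 than in experiment 2 (log2 −1.804 ± 0.23, adjusted p = 0.00132). LTI30, a second dehydrin gene, was high in experiment 2 alone, with 1213 and 785 in experiment 1, 3891 and 2058 in experiment 2 and 794 and 993 in experiment 3, and gave log2 −1.52 for 1 minus 2 (adjusted p = 0.00673) and 1.65 for 2 minus 3 (adjusted p = 0.00992). COR15A and COR15B are close copies and could share probe signal. For 1 minus 3 the list had 3 of 4 called lower, beside 25.8% of all tested probe sets with median scaling, or 2 of 4 with unscaled or centred arrays. There the call of COR15A (adjusted p = 0.0482) ended in 7 of 16 alternatives, with an adjusted p of up to 0.368, and that of COR47 (adjusted p = 0.0112) ended in 4, with up to 0.124.

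Genes of flavonoid and anthocyanin synthesis were higher in experiment 1. Of the list of 27 genes 7 were named on the array and 5 passed the filter, and all 5 were called higher than in experiment 2, with a median log2 difference of 2.02, and 4 were called higher than in experiment 3, with a median of 2.34. The counts of higher calls were the same under all 4 scalings, and stand beside 16.3% and 14.7% of all tested probe sets. DFR, the reductase that starts the anthocyanin branch, had 784.5 and 1161 in experiment 1, 140.2 and 132 in experiment 2 and 91.4 and 90.6 in experiment 3. DFR was 6.26-fold higher in experiment 1 than in experiment 2 (log2 2.65 ± 0.21, adjusted p = 0.000226) and 8.82-fold higher than in experiment 3 (log2 3.14 ± 0.21, adjusted p = 8.59e-05). AT4G14090 had 484 and 646.5 in experiment 1, 127 and 121 in experiment 2 and 70.2 and 32.6 in experiment 3 and was 8.48-fold higher than in experiment 3 (log2 3.08 ± 0.28, adjusted p = 0.000279). UF3GT, which decorates anthocyanins with sugar, had 358 and 509 in experiment 1, 168 and 96.6 in experiment 2 and 76.2 and 62.5 in experiment 3 and was 5.05-fold higher than in experiment 3 (log2 2.34 ± 0.27, adjusted p = 0.000882).

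Of the 5 tested flavonoid genes, 1 was called higher and 2 lower in experiment 2 than in experiment 3. That stands beside 7.97% and 16.8% of all tested probe sets, and 0 were higher with quantile normalization. The glycosyltransferase genes UGT78D1 and UGT78D2 were lower in experiment 2 than in experiment 3. UGT78D1 had 1297 and 1413 in experiment 1, 308 and 724 in experiment 2 and 1321 and 1339 in experiment 3, so experiment 3 overlapped experiment 1 (adjusted p = 0.955) and experiment 2 was the low one, with log2 −1.45 for 2 minus 3 (adjusted p = 0.0138). UGT78D2 had 1719 and 1441 in experiment 1, 286 and 469 in experiment 2 and 842 and 789 in experiment 3, with all 3 experiments apart. The call of UGT78D1 for 1 minus 2 ended without the Col array of experiment 1, and that of UGT78D2 for 1 minus 3 ended without 1 array in 3 of the fits, with adjusted p up to 0.0708 and 0.141 over the alternatives. HCT, an acyltransferase of the lignin pathway that shares its precursors with flavonoids, had 6541 and 5756 in experiment 1, 2467 and 2493 in experiment 2 and 2707 and 2866 in experiment 3 and was 2.46-fold higher in experiment 1 than in experiment 2 (log2 1.3 ± 0.18, adjusted p = 0.00186). HCT is 1 of 2 tested members of the phenylpropanoid list, and the other was called lower in experiment 1 than in experiment 2. All tested probe sets were called higher at 16.3% and lower at 16.5% in that pair.

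**Figure D5:**
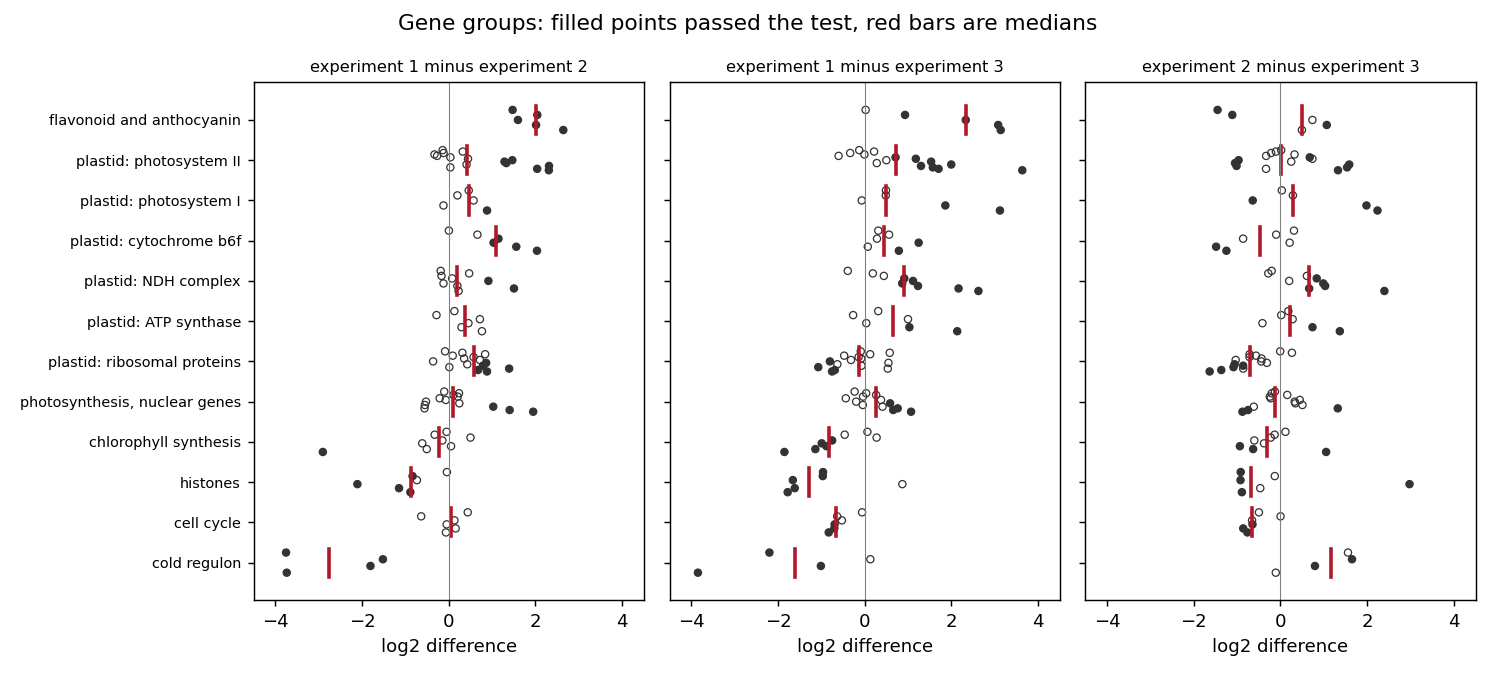
Log2 difference (horizontal) of each tested member of 12 gene groups in the 3 pairs of experiments, 1 point per gene. Filled points passed limma at an adjusted p under 0.05, open points did not, and red bars are medians. All flavonoid genes lie right of 0 in experiment 1 minus experiment 2, and plastid ribosomal protein genes shift left in experiment 2 minus experiment 3.

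More genes encoded in the chloroplast were called higher in experiment 1 than lower. Of 68 tested plastid genes, 19 were called higher and 0 lower in experiment 1 than in experiment 2 (18 to 20 higher under the other scalings), with a median of 0.45. That is read against the 16.3% of all tested probe sets. Against experiment 3, 25 were called higher and 4 lower, with a median of 0.47, beside −0.15 and 14.7% called higher for all tested probe sets. psbD, which encodes the D2 protein at the core of photosystem II, had 5312 and 3741 in experiment 1, 900.5 and 865 in experiment 2 and 545 and 209 in experiment 3. psbD was 4.96-fold higher in experiment 1 than in experiment 2 (log2 2.31 ± 0.28, adjusted p = 0.00118) and 12.5-fold higher than in experiment 3 (log2 3.64 ± 0.28, adjusted p = 0.000169). psaA, which encodes a core protein of photosystem I, had 10560 and 7840 in experiment 1, 4994 and 4843 in experiment 2 and 1339 and 786 in experiment 3. psaA was 8.72-fold higher in experiment 1 than in experiment 3 (log2 3.12 ± 0.21, adjusted p = 8.98e-05) and 4.72-fold higher in experiment 2 than in experiment 3 (log2 2.24 ± 0.21, adjusted p = 0.00215). Its call for 1 minus 2 (adjusted p = 0.0175) ended in 5 of 16 alternatives, with an adjusted p of up to 0.11.

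Between experiments 2 and 3, 14 of the 68 plastid genes were called higher and 12 lower (16 higher and 6 to 8 lower under the other scalings), beside 7.97% and 16.8% of all tested probe sets, so the share of lower calls was near that of all probe sets. Of 9 tested genes for the NDH complex, which cycles electrons around photosystem I, 5 were higher in experiment 2 and 0 lower, with a median of 0.66 (6 higher under the other scalings), beside 7.97% of all tested probe sets called higher. ndhH had 662 and 331 in experiment 1, 486.5 and 323.5 in experiment 2 and 88.4 and 38.4 in experiment 3 and was 5.27-fold higher in experiment 2 than in experiment 3 (log2 2.398 ± 0.19, adjusted p = 0.00107), and the soc1-2 array of experiment 3 read 90.7. Of 15 tested genes for plastid ribosomal proteins, 0 were higher and 5 lower, with a median of −0.71, beside 16.8% called lower and a median of −0.15 for all tested probe sets. With the other scalings 2 to 4 of these 15 were called lower, and their medians lay between −0.56 and −0.49. rpl20, chosen after its values were seen, had 443 and 244 in experiment 1, 191 and 151 in experiment 2 and 677.5 and 476 in experiment 3, highest in experiment 3, where ndhH was lowest. Of 6 tested genes for the cytochrome b6f complex, 4 were higher in experiment 1 than in experiment 2 (3 with quantile normalization), beside 16.3% of all tested probe sets. Its small subunit gene petG had 730 and 523.5 in experiment 1, 137 and 134.5 in experiment 2 and 383.5 and 318 in experiment 3, lowest in experiment 2, and was 4.11-fold higher in experiment 1 than in experiment 2 (log2 2.04 ± 0.19, adjusted p = 0.000424). These groups were formed from the first letters of gene names, and neighbouring plastid genes are transcribed together, so they are not independent.

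Within photosystem II and photosystem I, single genes differed widely from their neighbours in the same complex. Of 15 psb genes, 6 were called higher in experiment 1 than in experiment 2 and 0 lower, beside 16.3% and 16.5% of all tested probe sets, with log2 differences from −0.33 to 2.32. psaC had 2804 and 1753 in experiment 1, 2527 and 2302 in experiment 2 and 660.1 and 536 in experiment 3, so experiments 1 and 2 overlapped (adjusted p = 0.674) while psaC was 3.64-fold higher in experiment 1 than in experiment 3 (log2 1.86 ± 0.20, adjusted p = 0.000591). ndhK, a subunit of the NDH complex, had 1646 and 1148 in experiment 1, 522.5 and 425 in experiment 2 and 318 and 265 in experiment 3, stepping down over the 3 experiments. psbA, the D1 protein of photosystem II and also chosen after its values were seen, had 5260 and 2911 in experiment 1, 5633 and 4287 in experiment 2 and 4570 and 3365 in experiment 3 and did not pass in any pair (adjusted p = 0.23, 0.992 and 0.248).

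Of 13 tested nuclear genes for photosynthesis, 3 were higher in experiment 1 than in experiment 2 and 4 higher than in experiment 3, beside 16.3% and 14.7% of all tested probe sets. None was called lower with median scaling, but 1 and 2 were for 1 minus 2 with quantile normalization and with unscaled arrays. The sign of their median for 1 minus 2 turned with quantile normalization (0.11 against −0.05). LHCB4.3, a minor antenna protein, had 899 and 707 in experiment 1, 202 and 182 in experiment 2 and 524 and 258 in experiment 3 and was 3.86-fold higher in experiment 1 than in experiment 2 (log2 1.95 ± 0.23, adjusted p = 0.00105). Its more abundant paralogs LHCB4.1 and LHCB4.2 had the opposite sign for 1 minus 2 without a call (log2 −0.55 and −0.56, adjusted p = 0.0533 and 0.0669). LHCB4.1 had 24820 and 25500 in experiment 1 and 38360 and 35330 in experiment 2. LHCB4.2 had 18590 and 20040 in experiment 1, 29400 and 27490 in experiment 2 and 9658 and 13350 in experiment 3. SBPASE, a Calvin cycle phosphatase, had 16390 and 18280 in experiment 1, 5974 and 7103 in experiment 2 and 10500 and 11430 in experiment 3, 2.65-fold higher than in experiment 2 (log2 1.41 ± 0.17, adjusted p = 0.00118). The abundant RCA transcript given above did not pass in any pair. Genes of chlorophyll synthesis were lower in experiment 1 than in experiment 3 at 5 of 8 tested members, with a median of −0.81, beside 25.8% called lower and a median of −0.15 for all tested probe sets (4 of 8 with quantile normalization). PORB, which makes chlorophyllide in the light, had 2792 and 2185 in experiment 1, 18620 and 18590 in experiment 2 and 7544 and 10620 in experiment 3, 7.48-fold lower in experiment 1 than in experiment 2 (log2 −2.903 ± 0.23, adjusted p = 0.000217) and 3.603-fold lower than in experiment 3 (log2 −1.85 ± 0.23, adjusted p = 0.00111). CHLI2, a subunit of the magnesium chelatase, had 744 and 725 in experiment 1, 956 and 1153 in experiment 2 and 1501 and 1785 in experiment 3 and was 2.197-fold lower than in experiment 3 (log2 −1.14 ± 0.18, adjusted p = 0.00293). The calls of GSA1, HEMB1 and HEME1 for 1 minus 3 ended in leave-one-out fits.

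Of 3 tested members of the list of sugar-induced genes, 1 was higher and 1 lower in experiment 1 than in experiment 2, 0 and 2 than in experiment 3, and 0 and 1 in experiment 2 than in experiment 3. All tested probe sets were called higher and lower at 16.3% and 16.5%, 14.7% and 25.8%, and 7.97% and 16.8% in these pairs. The 3 members are DPE1, QQS and APL3, a subunit of the enzyme that starts starch synthesis. APL3 had 333 and 285 in experiment 1, 158 and 204 in experiment 2 and 243 and 242 in experiment 3 and was called for 1 minus 2 (log2 0.72, adjusted p = 0.0282). DPE1, which rearranges short glucans when starch is broken down at night, had 132 and 175 in experiment 1, 1580 and 1110 in experiment 2 and 1819 and 1768 in experiment 3. DPE1 was 7.82-fold lower in experiment 1 than in experiment 2 (log2 −2.97 ± 0.23, adjusted p = 0.00021) and 10.6-fold lower than in experiment 3 (log2 −3.399 ± 0.23, adjusted p = 8.95e-05). ATSPS4F, a sucrose-phosphate synthase taken from the genes at which experiment 2 stood apart, was lowest in experiment 2, with 3618 and 1852 in experiment 1, 272.5 and 351 in experiment 2 and 1861 and 1142 in experiment 3. It was 7.94-fold higher in experiment 1 than in experiment 2 (log2 2.99 ± 0.30, adjusted p = 0.000564). QQS, an orphan gene that acts on starch content, was highest in experiment 3, with 104 and 80.8 in experiment 1, 91.2 and 95.5 in experiment 2 and 459.8 and 383 in experiment 3. Experiments 1 and 2 were 3.95-fold lower and 3.89-fold lower than experiment 3 in QQS (log2 −1.98 ± 0.18, adjusted p = 0.00034 for 1 minus 3). The soc1-2 array of experiment 3, however, read 85.9, at the level of experiments 1 and 2. SAG29, the sugar transporter SWEET15, stepped down over the experiments with 1128 and 659 in experiment 1, 336 and 122 in experiment 2 and 40.8 and 6.97 in experiment 3. SAG29 was 22.1-fold higher in experiment 1 than in experiment 3 (log2 4.47 ± 0.20, adjusted p = 1.94e-05) and 5.61-fold higher in experiment 2 than in experiment 3 (log2 2.49 ± 0.20, adjusted p = 0.00127).

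Of 9 tested members of the list of genes known to respond to sugar starvation, 3 were higher in experiment 2 than in experiment 3 and 0 lower, with a median of 0.61, and 3 were higher in experiment 1 than in experiment 3. All tested probe sets were called higher at 7.97% and 14.7% in these pairs. The other scalings called 4 or 5 higher and 0 lower in the first of them. SAG29 is a member of the list. AT3G15450 had 2670 and 1999 in experiment 1, 6381 and 5071 in experiment 2 and 1187 and 2283 in experiment 3 and gave log2 −1.29 for 1 minus 2 (adjusted p = 0.0194) and 1.78 for 2 minus 3 (adjusted p = 0.0108). AT2G20670 had 1811 and 1492 in experiment 1, 3200 and 1417 in experiment 2 and 435.5 and 920.2 in experiment 3, with both arrays of experiment 3 the lowest. For 1 minus 2 the list was even, with 2 higher and 2 lower.

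Experiment 2 was highest at a set of genes that includes known stress genes. PDF2.1, a plant defensin, had 87.8 and 19.2 in experiment 1, 2771 and 1663 in experiment 2 and 692 and 504 in experiment 3, and was 33.6-fold lower in experiment 1 than in experiment 2 (log2 −5.07 ± 0.26, adjusted p = 4.94e-05) and 3.55-fold higher in experiment 2 than in experiment 3 (log2 1.83 ± 0.26, adjusted p = 0.00582). AT3G10020 had 138 and 85.7 in experiment 1, 4373 and 2921 in experiment 2 and 936 and 1327 in experiment 3, 27.9-fold lower in experiment 1 than in experiment 2 (log2 −4.802 ± 0.28, adjusted p = 6.62e-05). STZ, a zinc-finger repressor induced by many stresses, had 179.6 and 323 in experiment 1, 992 and 973.5 in experiment 2 and 207 and 314.5 in experiment 3, so experiments 1 and 3 overlapped (adjusted p = 0.815) and experiment 2 was 3.64-fold higher than experiment 3 (log2 1.87 ± 0.23, adjusted p = 0.00421). The soc1-2 array of experiment 3 read 1054, at the level of experiment 2. STZ was the only one of 7 tested early stress genes called for 1 minus 2, near the 16.5% of all tested probe sets called lower. HIS1-3, a linker histone induced by drought, had 372 and 146 in experiment 1, 2368 and 481.5 in experiment 2 and 127 and 112 in experiment 3 and was 7.88-fold higher in experiment 2 than in experiment 3 (log2 2.98 ± 0.41, adjusted p = 0.00571), with the Col array of experiment 2 far above the soc1-101D array. The list of drought-responsive genes has 2 tested members, HIS1-3 and 1 other. HIS1-3 was called lower in experiment 1 than in experiment 2 and the other member higher, beside 16.5% and 16.3% of all tested probe sets. Both were called higher in experiment 2 than in experiment 3, beside 7.97% of all tested probe sets. AT2G15220 had 93.1 and 74.6 in experiment 1, 442 and 324.5 in experiment 2 and 75.3 and 37.1 in experiment 3 and was 5.44-fold higher than in experiment 3 (log2 2.44 ± 0.19, adjusted p = 0.00107).

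Of the list of 60 genes of oxidative stress and detoxification 12 were named on the array and 8 passed the filter, all of them glutathione transferases of the tau class, which detoxify reactive compounds. In experiment 1 against experiment 2, 3 of the 8 were higher and 3 lower, beside 16.3% and 16.5% of all tested probe sets. GSTU25 had 148 and 261.5 in experiment 1, 624.5 and 596 in experiment 2 and 193 and 283 in experiment 3, 2.901-fold lower in experiment 1 than in experiment 2 (log2 −1.54 ± 0.23, adjusted p = 0.00256). GSTU26 had 272 and 227 in experiment 1, 977 and 684 in experiment 2 and 526 and 640.2 in experiment 3, 3.13-fold lower (log2 −1.64 ± 0.22, adjusted p = 0.00175). The calls of GSTU16, GSTU18, GSTU22 and GSTU27 for 1 minus 2 ended in 3 or more of the alternatives. CYP71B26, a cytochrome P450, had 291 and 348 in experiment 1, 1184 and 1386 in experiment 2 and 663 and 858 in experiment 3 and was 3.85-fold lower (log2 −1.94 ± 0.17, adjusted p = 0.000361). Both of the 2 tested heat shock genes were called higher in experiment 1 than in experiment 2, beside 16.3% of all tested probe sets. Fes1A, a co-chaperone of Hsp70, had 828 and 659 in experiment 1, 184 and 216 in experiment 2 and 345.5 and 366 in experiment 3 and was 3.46-fold higher in experiment 1 than in experiment 2 (log2 1.79 ± 0.20, adjusted p = 0.000774). AT5G48570, which encodes the immunophilin ROF2, had 259 and 341 in experiment 1, 81.3 and 101 in experiment 2 and 260.2 and 259 in experiment 3 and was 2.88-fold higher (log2 1.52 ± 0.18, adjusted p = 0.00111).

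Experiment 2 stood apart downward at a second set of genes. AT1G19200 had 357 and 397 in experiment 1, 18.6 and 10.4 in experiment 2 and 278 and 177 in experiment 3, 11.7-fold higher in experiment 1 than in experiment 2 (log2 3.55 ± 0.22, adjusted p = 8.44e-05) and 7.17-fold lower in experiment 2 than in experiment 3 (log2 −2.84 ± 0.22, adjusted p = 0.00107). AT5G20790 had 2869 and 2779 in experiment 1, 215 and 319.8 in experiment 2 and 1862 and 1834 in experiment 3, 6.62-fold lower in experiment 2 than in experiment 3 (log2 −2.73 ± 0.21, adjusted p = 0.00107). AT5G15950 had 3808 and 3498 in experiment 1, 216 and 184 in experiment 2 and 630 and 577 in experiment 3, with all 3 experiments apart. TBL26, of a family that acetylates cell wall polymers, had 1197 and 1663 in experiment 1, 102 and 185.5 in experiment 2 and 497.5 and 699 in experiment 3 and was 9.07-fold higher in experiment 1 than in experiment 2 (log2 3.18 ± 0.18, adjusted p = 6.46e-05). In each of these 4 genes the lowest values belonged to both arrays of experiment 2, as the rule for standing apart downward requires.

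At a further set of genes experiment 3 was the lowest. AT1G73480 had 1498 and 847 in experiment 1, 1596 and 992 in experiment 2 and 113 and 122 in experiment 3. It was 8.36-fold higher in experiment 1 than in experiment 3 (log2 3.06 ± 0.25, adjusted p = 0.000182) and 9.32-fold higher in experiment 2 than in experiment 3 (log2 3.22 ± 0.25, adjusted p = 0.00107). AT5G03350 had 3000 and 4203 in experiment 1, 2159 and 2888 in experiment 2 and 242 and 373 in experiment 3, 11.2-fold higher in experiment 1 than in experiment 3 (log2 3.48 ± 0.17, adjusted p = 2.65e-05). Experiments 1 and 2 overlapped at AT1G73480 and lay next to each other at AT5G03350, and 1 minus 2 did not pass for either gene (adjusted p = 0.657 and 0.0599). OSM34, an osmotin-like defence protein, had 2423 and 2362 in experiment 1, 3960 and 3593 in experiment 2 and 661 and 607 in experiment 3, 5.81-fold higher in experiment 2 than in experiment 3 (log2 2.54 ± 0.17, adjusted p = 0.00107), and it also differed between experiments 1 and 2 (log2 −0.65, adjusted p = 0.0242). SIS, a salt-induced serine-rich protein, had 564 and 418 in experiment 1, 579 and 448 in experiment 2 and 78.1 and 71.6 in experiment 3, 5.61-fold higher (log2 2.49 ± 0.18, adjusted p = 0.00107). AT1G66100 had 8237 and 7746 in experiment 1, 5182 and 5524 in experiment 2 and 554.5 and 912 in experiment 3, and the soc1-2 array of experiment 3 read 501.

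Experiment 3 was highest at a further set. AT1G07050 had 61.1 and 21.6 in experiment 1, 258 and 239 in experiment 2 and 1356 and 1031 in experiment 3, stepping up over the 3 experiments, and was 20.9-fold lower in experiment 1 than in experiment 3 (log2 −4.39 ± 0.23, adjusted p = 3.09e-05). AT4G34950 had 175 and 210 in experiment 1, 922 and 681 in experiment 2 and 2887 and 2382 in experiment 3, 12.5-fold lower in experiment 1 than in experiment 3 (log2 −3.64 ± 0.21, adjusted p = 4.41e-05). AT2G43550 had 556 and 664.5 in experiment 1, 2061 and 1834 in experiment 2 and 6032 and 5172 in experiment 3, and AT2G23910 had 57.2 and 184 in experiment 1, 101 and 90.03 in experiment 2 and 538 and 587 in experiment 3. On the soc1-2 array of experiment 3 these 4 genes read 1516, 2522, 5098 and 524, all above the arrays of experiments 1 and 2.

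Histone genes were lower in experiment 1 than in experiment 3. Of 6 tested out of 7 on the array, 5 were called lower and 0 higher, with a median of −1.29, and 5 were called lower under all 4 scalings, beside 25.8% of all tested probe sets with median scaling. HTB11, a histone H2B that packs newly copied DNA, had 517 and 593 in experiment 1, 979 and 1100 in experiment 2 and 1745 and 2158 in experiment 3, 3.42-fold lower in experiment 1 than in experiment 3 (log2 −1.77 ± 0.17, adjusted p = 0.000418). HTB4, another H2B, had 1307 and 1286 in experiment 1, 2690 and 3107 in experiment 2 and 3740 and 4280 in experiment 3, 3.05-fold lower (log2 −1.61 ± 0.18, adjusted p = 0.000688), and HTB2 had 438 and 439 in experiment 1, 544 and 1009 in experiment 2 and 1373 and 1474 in experiment 3, 3.15-fold lower (log2 −1.66 ± 0.24, adjusted p = 0.00208). The calls of HTB1 and HON4 ended in some alternatives, with adjusted p up to 0.081 and 0.0739. The sixth member was the drought-induced HIS1-3 given above. The H2B genes are close copies of each other and could share probe signal.

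Cell cycle genes gave smaller differences. Of 6 tested, 3 were called lower in experiment 1 than in experiment 3, with a median of −0.66, and 3 lower in experiment 2 than in experiment 3, with a median of −0.65. All tested probe sets had 25.8% and 16.8% called lower and a median of −0.15 in both pairs. The other scalings called 1 or 2 of the 6 lower in each pair. AUR2, a mitotic Aurora kinase, had 221 and 248 in experiment 1, 263 and 229 in experiment 2 and 424 and 437 in experiment 3, and PRL, a subunit of the helicase that opens DNA for copying, had 409.6 and 510.2 in experiment 1, 403 and 411 in experiment 2 and 748 and 759 in experiment 3. For both genes the arrays of experiment 3 lay above all others, and the log2 differences for 1 minus 3 were −0.83 and −0.697 (adjusted p = 0.0101 and 0.019). Both calls ended in leave-one-out fits, with adjusted p up to 0.0783 and 0.146.

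Of 19 tested expansin, xyloglucan-modifying and related genes, 3 were higher and 3 lower in experiment 1 than in experiment 2, near the 16.3% and 16.5% of all tested probe sets. XTH32, a xyloglucan-modifying enzyme, had 3568 and 2538 in experiment 1, 777 and 750.3 in experiment 2 and 838.5 and 811 in experiment 3, 3.87-fold higher (log2 1.95 ± 0.19, adjusted p = 0.000543). EXGT-A3, of the same enzyme family, had 3659 and 2543 in experiment 1, 1315 and 988 in experiment 2 and 1521 and 1080 in experiment 3, 2.65-fold higher (log2 1.41 ± 0.17, adjusted p = 0.00118). EXLA1, an expansin-like protein, ran the other way with 68.7 and 74.7 in experiment 1, 222 and 374 in experiment 2 and 282 and 271 in experiment 3, 3.38-fold lower (log2 −1.76 ± 0.23, adjusted p = 0.00137). EXPB1, a β-expansin, was low in experiment 3 alone, with 519.7 and 405 in experiment 1, 604 and 483 in experiment 2 and 175 and 181 in experiment 3. Between experiments 2 and 3, 5 of the 19 were higher and 1 lower, against 7.97% and 16.8% of all tested probe sets.

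Of 5 tested gibberellin genes, 1 was called lower in experiment 1 than in experiment 2 and 1 than in experiment 3. All tested probe sets were called lower at 16.5% and 25.8% in these pairs. GID1A, a gibberellin receptor, had 339.6 and 255 in experiment 1, 886 and 782 in experiment 2 and 864 and 944 in experiment 3, 2.71-fold lower in experiment 1 than in experiment 2 (log2 −1.44 ± 0.20, adjusted p = 0.00175) and 2.94-fold lower than in experiment 3 (log2 −1.56 ± 0.20, adjusted p = 0.00116). The other 4 tested gibberellin genes did not pass in any pair. Among 7 tested auxin genes 1 was called for 1 minus 2 (higher), and 2 were higher and 1 lower for 1 minus 3. Of all tested probe sets 16.3% were called higher for 1 minus 2, and 14.7% higher and 25.8% lower for 1 minus 3. For 1 minus 3 the auxin counts were 1 higher and 1 lower with quantile normalization, and 3 and 0 with unscaled or centred arrays. For 2 minus 3 they were 0 higher and 1 lower with median scaling, beside 7.97% and 16.8% of all tested probe sets. The other scalings called 2 higher and 0 lower in that pair. AIM1 and SDP1, which break down stored fatty acids after germination, are the 2 tested members of the germination list. Both were called lower in experiment 1 than in experiments 2 and 3, beside 16.5% and 25.8% of all tested probe sets. AIM1 had 1165 and 1101 in experiment 1, 2512 and 2044 in experiment 2 and 2375 and 2519 in experiment 3, 1.98-fold lower in experiment 1 than in experiment 2 (log2 −0.99 ± 0.18, adjusted p = 0.00636) and 2.14-fold lower than in experiment 3 (log2 −1.097 ± 0.18, adjusted p = 0.00355). SDP1, the lipase that opens oil bodies, had 237 and 297.5 in experiment 1, 462 and 489.6 in experiment 2 and 395 and 496 in experiment 3, and its calls for 1 minus 2 and 1 minus 3 ended in leave-one-out fits.

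The series was made to find targets of SOC1, and 4 genes of the list of flowering-time genes were tested. SMZ, an AP2-type floral repressor, had 596 and 134 in experiment 1, 235 and 70.2 in experiment 2 and 302 and 136 in experiment 3. It was lower in soc1-101D than in Col in every experiment and is among the 85 probe sets called for genotype. SMZ was called for 1 minus 2 (log2 1.02, adjusted p = 0.0162), though not without the Col array of experiment 1 and not without the genotype block or the filter. SNZ, a close relative, had 211.5 and 168 in experiment 1, 154.5 and 88.1 in experiment 2 and 120 and 39.97 in experiment 3 and was called for 1 minus 3 (log2 1.19, adjusted p = 0.00721), but not without the filter, the replicate block or the soc1-101D array of experiment 3. SNZ is dim and was tested in 10 of the 16 alternatives. LD and FY, of the autonomous pathway, did not pass in any pair.

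Among genes of the list of TIR-type immune receptors and their relatives, 3 of 4 tested were lower in experiment 1 than in experiment 2, with a median of −1.53, beside 16.5% called lower for all tested probe sets. AT1G72940 had 88.03 and 55.7 in experiment 1, 259 and 271 in experiment 2 and 241 and 171 in experiment 3, 3.17-fold lower (log2 −1.66 ± 0.21, adjusted p = 0.00121), and AT1G72920 had 67.4 and 40 in experiment 1, 223 and 298 in experiment 2 and 94.2 and 154 in experiment 3, 3.86-fold lower (log2 −1.95 ± 0.28, adjusted p = 0.00227). These are neighbouring genes by locus number and may share probe signal. All 4 were called lower in experiment 1 than in experiment 3, against 1 to 3 of 4 under the other scalings and 25.8% of all tested probe sets.

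Several of the widest differences lay in probe sets to which the tables used here give no single gene. Probe set 261569_at had 15020 and 10110 in experiment 1, 96.04 and 143 in experiment 2 and 29.1 and 53.7 in experiment 3, higher in experiment 1 than in experiment 2 (log2 6.49 ± 0.29, adjusted p = 3.68e-05) and 207-fold higher than in experiment 3 (log2 7.69 ± 0.29, adjusted p = 1.55e-05). Probe set 267461_at had 302 and 128 in experiment 1, 14080 and 5649 in experiment 2 and 5340 and 4251 in experiment 3, 41.1-fold lower (log2 −5.36 ± 0.26, adjusted p = 4.94e-05). Probe set 249850_at stepped up over the experiments, with 10.2 and 40.4 in experiment 1, 565 and 486 in experiment 2 and 3093 and 2810 in experiment 3, 70.5-fold lower in experiment 1 than in experiment 3 (log2 −6.14 ± 0.30, adjusted p = 2.44e-05). Probe set 252415_at was near background in experiment 3 alone, with 518 and 344 in experiment 1, 3777 and 959.8 in experiment 2 and 27.3 and 40.5 in experiment 3, 36.4-fold higher in experiment 2 than in experiment 3 (log2 5.19 ± 0.45, adjusted p = 0.00164), with the Col array of experiment 2 the highest. Of the 13648 tested probe sets, 7278 had 1 gene, 274 several and 6096 none in the tables used.

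Further gene groups are given by their counts. Of 11 tested cytochrome P450 genes, 1 was higher and 2 lower in experiment 1 than in experiment 2, and 1 higher and 4 lower than in experiment 3 (2 lower under the other scalings). Those stand beside 16.3% higher and 16.5% lower, and 14.7% higher and 25.8% lower, of all tested probe sets. Of 6 tested mitochondrial genes out of 23 on the array, 3 were higher and 1 lower in experiment 1 than in experiment 2, and 2 higher and 1 lower than in experiment 3, beside the same shares of all tested probe sets. Of 4 tested WRKY transcription factor genes, 2 were higher in experiment 1 than in experiment 3 (14.7% of all tested probe sets). Of 7 tested senescence genes, 1 was lower in experiment 1 than in experiment 2 and 1 higher in experiment 2 than in experiment 3 (16.5% and 7.97% of all). Of 4 tested glucosinolate genes, 3 were lower in experiment 1 than in experiment 3, but 1 under each of the other scalings, beside 25.8% of all tested probe sets. Of 2 tested peroxidase genes, 0 were higher and 1 lower in experiment 1 than in experiment 2, and 1 higher and 1 lower than in experiment 3. All tested probe sets were called higher and lower at 16.3% and 16.5%, and at 14.7% and 25.8%, in these pairs. PRX52, a wall-linked peroxidase and the member called higher, had 229 and 441 in experiment 1, 503 and 204 in experiment 2 and 40.3 and 53.4 in experiment 3, and was 5.13-fold higher in experiment 1 than in experiment 3 (log2 2.36 ± 0.43, adjusted p = 0.0048).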

How the data were processed

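Total RNA was measured on 7 one-colour arrays with biotin label, 6 of which entered the comparison. The deposited values are linear intensities per probe set, made with software not given in the sources used here. Control probe sets for RNA quality are not analysed here. From the deposited intensity values, each array was scaled to a common median of 194.7, the pseudocount 19.47 was added, log2 was taken and the dimmest 40% of probe sets were left out, leaving 13648 of 22746. The model held experiment and genotype (limma 3.58.1, R 4.3.3, 2 residual and 5.7 prior degrees of freedom), with Benjamini-Hochberg adjustment over all tested probe sets, and the residual is the deviation between genotypes. The method was tested on simulated data. Pairing by genotype comes from the labels, so genotype is the replicate block. Whether the arrays hold separately grown seedlings is not in the labels, and p-values then measure only spread among these arrays, possibly technical. Gene names come from the platform annotation, updated through RefSeq TAIR10.1 for 13436 probe sets. Plastid and mitochondrial lists were matched by chromosome or symbol after the files had been seen. Genes were named by rule: the 8 highest and 8 lowest called named genes per pair, up to 6 members per list by the F test, the 5 named genes furthest above and below per experiment among those standing apart, and the extreme probe sets without a gene name. The gene lists, the members and the tests were chosen with earlier results of these data known. The alternatives were other scalings, pseudocounts and filters, a trend, the fit without the block, the soc1-2 array added, each array left out, and a centring added after seeing the data.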

Additional observations from a re-analysis of the deposited data

Results flagged for a closer look

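PRX52 gave opposite signs in the 2 genotypes for experiment 1 minus experiment 2, with a log2 difference of −1.07 in Col alone and 1.05 in soc1-101D alone. The difference between them was not tested, since each rests on 1 array per experiment. It was the only named gene with at least 2-fold differences in opposite directions in the 2 genotypes. With a lower threshold of 0.5 on the log2 scale each way, AT2G23910 and EXPA7 for 1 minus 2 and orfX for 2 minus 3 also had opposite signs.

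In all, 3 named genes reached a signal on the soc1-2 array of experiment 3, which is in no comparison, at least 2-fold above all 6 compared arrays. AT1G72940 had a scaled intensity of 797 there. COR15A had 13690 and COR15B had 10060. COR15A read 3256 and 93.7 on the Col and soc1-101D arrays of the same experiment, so the 3 genotypes of experiment 3 gave 3 different levels. Groups of 2 arrays are too small for a test of single outlying arrays.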

How the results depend on the processing

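Without the filter on dim probe sets the counts of differing probe sets were 1978 for 1 minus 2, 2981 for 1 minus 3, 0 for 2 minus 3 and 2317 for the F test. Leaving out 1 array at a time gave 2601 to 4030 for 1 minus 2, 2815 to 6290 for 1 minus 3, 513 to 3588 for 2 minus 3 and 4505 to 7399 for the F test, with an arm of 1 array assumed to vary like the others. Without the replicate block of genotype the counts were 3650, 4727, 2500 and 5953. The other settings stayed within 1.5 times of each count. Experiments standing apart depended on the fold by construction. At 1.5-fold the counts above and below were 683 and 791 for experiment 1, 205 and 325 for experiment 2, and 593 and 251 for experiment 3, and at 4-fold they were 67 and 59, 0 and 2, and 2 and 20. Quantile normalization gave 44 below for experiment 2 and 38 above for experiment 3, and centring gave 41 above and 136 below for experiment 3. The cause of the changes with scaling was not tested. Of 107, 121 and 96 calls among named genes in the 3 pairs, 75, 68 and 36 held in every setting that kept a filter, and 68, 66 and 0 in all settings. PRX52 turned for 1 minus 2 to a log2 difference of 0.894 without the Col array of experiment 2 and to −0.922 without its soc1-101D array, against −0.01 with both. The number of arrays limits what these tests can show.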
